A study of Homo sapiens with 12 samples.

Results

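The TNF ligand and receptor superfamilies were followed on 12 arrays from L-428 and L-1236, both cell lines of Hodgkin lymphoma. The set is 45 human genes of both superfamilies, listed by name; the rule used no measured value, but the list was drawn up with earlier results of these data known. Of these, 44 carried a row in the platform annotation, and CD40LG is unnamed here. They were read through 43 of 20546 rows with a gene symbol, since TNFSF12 and TNFSF13 share 1 row. LTA and LTB have 2 rows each and were read from the brighter one, and 3 of the rows read list several symbols: TNFRSF6B with RTEL1, TNFRSF10C with an uncharacterized locus, and TNFSF12 with TNFSF13.

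The ligands of this superfamily are trimeric proteins, mostly held in the cell membrane, and their receptors carry cysteine-rich repeats outside the cell. Receptors with a cytoplasmic death domain can start apoptosis, while most others recruit TRAF adaptors and switch on NF-kappaB, and decoy receptors bind ligand without passing on a signal. In classical Hodgkin lymphoma the tumour cells descend from B cells, have lost much of the B-cell programme, and are recognised by the receptor TNFRSF8 (CD30), with CD40 as another surface receptor typical of them. EBF1, the transcription factor tested here, is required for early B-cell development.

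Both lines are established cell lines, bought from the DSMZ collection per the labels. The groups were L-428 tGFP/EBF1 (tGPF-IRES-EBF1 in the spelling of the protocol) and L-428 tGFP-only, then L-1236 tGFP/EBF1 and L-1236 tGFP-only, with 3 arrays each that the design text calls independent. All 4 groups carried a tGFP vector, were cultured for 8 days and were sorted for tGFP, so each group is a sorted pool and not a clone. Nothing in the labels says whether the samples came from separate transductions, so the p-values measure the spread between these samples.

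The promoter sequences of 3 receptors are shown because their response to EBF1 in L-1236 kept its call under every processing alternative other than the added 2-fold limit, which none of them reached, and they have an entry in the RefSeq promoter table (GRCh38.p14). TNFRSF8 and TNFRSF14, a receptor of TNFSF14 and LTA, were higher with EBF1 in L-1236, and TNFRSF9 (CD137), a costimulatory receptor, was lower. Each sequence gives the 250 bases before the start site, 5′ to 3′ on the gene's strand, for TNFRSF8 at chr1:12063053-12063302 (plus strand), for TNFRSF14 at chr1:2556121-2556370 (plus strand) and for TNFRSF9 at chr1:7940840-7941089 (minus strand). Capitals mark matches to the EBF core CCCNNGGG, which reads the same on both strands, and to the kappaB consensus on either strand.
TNFRSF8: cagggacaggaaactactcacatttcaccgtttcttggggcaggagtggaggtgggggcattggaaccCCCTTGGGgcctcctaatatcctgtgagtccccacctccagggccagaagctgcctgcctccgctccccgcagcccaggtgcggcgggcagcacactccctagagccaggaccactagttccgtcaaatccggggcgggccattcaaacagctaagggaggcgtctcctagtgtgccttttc
TNFRSF14: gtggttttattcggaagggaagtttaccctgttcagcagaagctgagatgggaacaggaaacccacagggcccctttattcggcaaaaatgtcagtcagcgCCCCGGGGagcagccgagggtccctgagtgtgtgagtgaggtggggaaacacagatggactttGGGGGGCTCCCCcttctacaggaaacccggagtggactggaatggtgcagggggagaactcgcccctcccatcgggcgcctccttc
TNFRSF9: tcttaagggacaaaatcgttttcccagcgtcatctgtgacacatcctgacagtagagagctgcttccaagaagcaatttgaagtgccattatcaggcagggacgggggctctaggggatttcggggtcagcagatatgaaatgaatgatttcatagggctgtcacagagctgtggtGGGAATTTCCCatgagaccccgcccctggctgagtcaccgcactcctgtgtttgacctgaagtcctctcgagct
TNFRSF8 held CCCTTGGG, beginning 182 bases before the start, and no kappaB match. TNFRSF14 held CCCCGGGG, beginning 149 bases before the start, and 3 overlapping kappaB matches that begin 86, 85 and 84 bases before it. TNFRSF9 held no match to the EBF core, and its 2 overlapping kappaB matches begin 74 and 73 bases before the start. The other called members did not share this order of core and direction. TNFRSF11A (2 core matches) and TNF (1) fell with EBF1 in L-1236, and TNFSF9 (0) rose. In L-428, TNFSF4 rose and TNFSF10 fell, each with 0 core matches. CD40 and NGFR had no window. Of 39 windows belonging to 29 members, 12 (30.8%) held the EBF core, against 5988 of 35116 windows in the whole table (17.1%). The kappaB consensus was in 11 member windows (28.2%), against 9.96% of all windows. With T before and A after the core, the letters stood in 0 of the 39 member windows, against 1.06% of all windows. These are letter matches and say nothing of binding.

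The row of EBF1, which also lists PDGFRB, checked the labels. EBF1 read 12.96, 12.98 and 12.93 on the L-428 EBF1 arrays, against 8.63, 8.37 and 8.34 on the L-428 tGFP arrays, a 22.8-fold difference (adjusted p = 6.87e-18). It read 13.07, 13.27 and 13.10 on the L-1236 EBF1 arrays, against 7.24, 7.13 and 7.16 on the L-1236 tGFP arrays, a 62.8-fold difference (adjusted p = 4.47e-20). The 2 groups were apart in each line by far more than their spread.

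Levels are deposited log2 signals, and a level of 1 gene is not set against that of another. Array medians lay between 7.19 and 7.31, and arrays of a group correlated at 0.992 to 0.997 over all rows. Replicate 3 of L-428 tGFP and replicate 1 of L-1236 EBF1 stood apart by a narrower interquartile range than the other arrays of their groups (2.28 against 2.49 and 2.47, and 2.17 against 2.31 and 2.26). TNFRSF8 and CD40 were above the array median on all 12 arrays, as were 6 of 8 rows in a list of Hodgkin cell markers that holds both. All 6 T-cell marker rows and 4 of 6 myeloid rows were below it on every array. Of the B-cell markers, MS4A1 was below it on every array and PAX5 above it on every array.

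Of the 43 family rows, 26 were above the array median on all 12 arrays, 15 below it on all, and TNFRSF1A and TNFRSF21 above it on 6 arrays. The 15 were TNFRSF1B, TNFRSF10C, TNFRSF10D, TNFRSF11B, TNFRSF17, TNFRSF19, LTBR, EDAR, TNFSF4, TNFSF8, TNFSF11, TNFSF13B, TNFSF15, TNFSF18 and FASLG. Even values of such dim rows are weak evidence that a gene did not change. Row means over the arrays ran between 5.82 and 11.06. The standard deviation within a group had a median of 0.0676 and reached 0.27 for TNF in L-428 tGFP. The heat map of all members shows that the larger contrasts run between the lines, and that the decoy and the BAFF and APRIL receptors are nearly even across arrays.

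**Figure D1:**
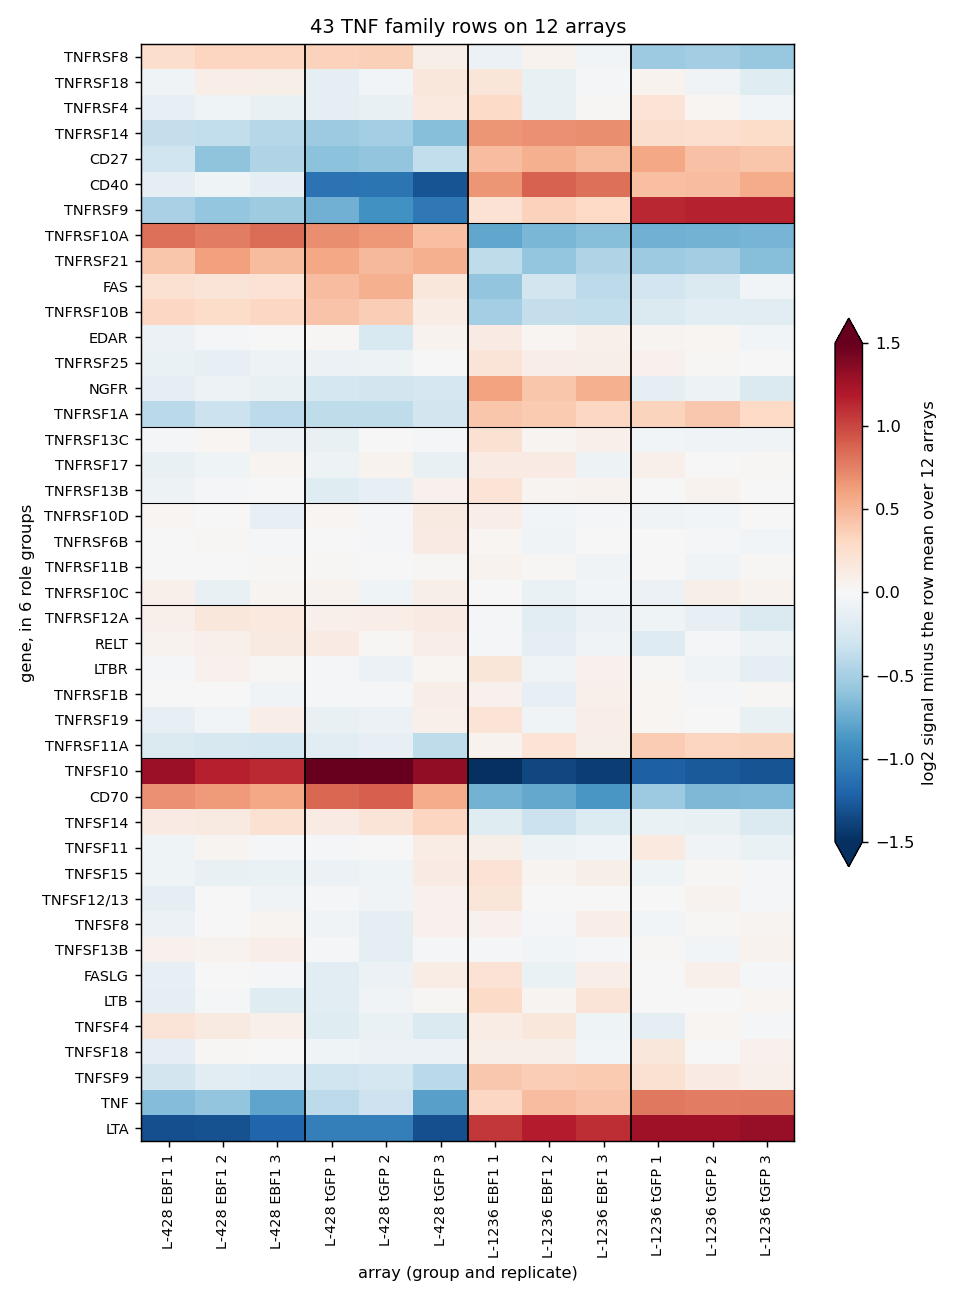
Deviation of each family row (vertical, ordered by role) from its own mean over 12 arrays, in log2 units, for every array (horizontal). Red is above and blue below the row mean, and the colour scale ends at deviations of 1.5. TNFSF10 and CD70 are red in L-428, LTA and TNF are red in L-1236, and CD40 is palest in L-428 EBF1 cells.

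In L-428 the response to EBF1 was led by CD40, the costimulatory receptor through which helper T cells activate B cells, which rose 2.07-fold. TNFRSF9 and the ligand TNFSF4 (OX40 ligand) rose by smaller amounts, and TNFSF10 (TRAIL), a ligand that can trigger apoptosis, fell. These were 3 of 43 rows higher and 1 lower at an adjusted p of 0.05 or less (limma's moderated test, Benjamini-Hochberg over 20546 rows), against 2.62% of all tested rows higher and 1.72% lower. These shares rest on 538 rows higher and 354 lower, a split that turned to 464 and 843 without L-428 tGFP replicate 3 and to 703 and 1281 without both arrays that stood apart. With the study's 2-fold limit added, 1 of 43 rows passed, CD40, against 0.0779% of all rows higher and 0.0195% lower. The sort took tGFP-positive cells as a pool, so more RNA per cell and more cells expressing a gene cannot be told apart.

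In L-1236 more members passed. NGFR (the p75 neurotrophin receptor), TNFRSF8, TNFRSF14, CD40 and TNFSF9, the ligand of TNFRSF9, rose. TNFRSF9, TNF and TNFRSF11A (RANK, the receptor of TNFSF11) fell. These were 5 rows higher and 3 lower of 43, against 3.69% of all tested rows higher and 5.95% lower (759 and 1222 rows, and 1222 and 1418 without both arrays that stood apart). No member reached 2-fold in L-1236, where 0.0876% of all rows were higher and 0.0584% lower with that limit. The members' median log2 change was near 0 in both lines, at -0.0003 in L-428 against a median of 0.0037 over all rows, and at 0.03 in L-1236 against 0.0080.

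The costimulatory receptors held most of the responding receptors, with 2 of 7 rows higher in L-428, and 3 higher and 1 lower in L-1236. Of all tested rows, 2.62% were higher in L-428, and 3.69% were higher and 5.95% lower in L-1236. CD40 read 9.54, 9.63 and 9.56 on the L-428 EBF1 arrays, against 8.59, 8.59 and 8.40 on the L-428 tGFP arrays. Both groups were tight and did not overlap, at 9.57 ± 0.045 in EBF1 and 8.53 ± 0.11 in tGFP cells (SD, n = 3 each), a log2 change of 1.05 ± 0.070 (SE) with adjusted p = 2.08e-08. Without L-428 tGFP replicate 3, the lowest array, the change was 0.98, just short of 2-fold. CD40 read 10.36, 10.58 and 10.52 on the L-1236 EBF1 arrays, against 10.14, 10.15 and 10.25 on the L-1236 tGFP arrays. There the groups also did not overlap but lay closer together, at 10.48 ± 0.11 in EBF1 and 10.18 ± 0.060 in tGFP cells (SD, n = 3 each), and CD40 rose by 0.30 ± 0.070 (SE) with adjusted p = 0.00792.

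TNFRSF9 passed in both lines with opposite directions. TNFRSF9 read 9.36, 9.26 and 9.31 on the L-428 EBF1 arrays, against 9.12, 8.93 and 8.77 on the L-428 tGFP arrays, a rise of 0.37 (1.29-fold, adjusted p = 0.00536). TNFRSF9 read 10.05, 10.19 and 10.14 on the L-1236 EBF1 arrays, against 10.97, 10.99 and 10.99 on the L-1236 tGFP arrays. In L-1236 all EBF1 arrays were well below all tGFP arrays, at 10.13 ± 0.069 in EBF1 and 10.99 ± 0.013 in tGFP cells (SD, n = 3 each), a log2 change of -0.86 ± 0.074 (SE) or 1.82-fold lower (adjusted p = 2.72e-07). Its ligand TNFSF9 moved the other way in L-1236: TNFSF9 read 10.08, 10.04 and 10.07 on the L-1236 EBF1 arrays, against 9.90, 9.80 and 9.75 on the L-1236 tGFP arrays, a change of 0.25 (adjusted p = 0.0125) with no overlap, lost when L-1236 tGFP replicate 2 or 3 or L-1236 EBF1 replicate 3 was left out (adjusted p = 0.0506 to 0.0795). In L-428, TNFSF9 read 9.40, 9.50 and 9.48 on the L-428 EBF1 arrays, against 9.38, 9.40 and 9.26 on the L-428 tGFP arrays, and the groups overlapped (0.11, adjusted p = 0.455).

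TNFRSF8, the defining Hodgkin marker CD30, responded in L-1236. TNFRSF8 read 10.02, 10.16 and 10.07 on the L-1236 EBF1 arrays, against 9.57, 9.59 and 9.55 on the L-1236 tGFP arrays, and it rose by 0.51 ± 0.070 (SE), or 1.43-fold (adjusted p = 6.54e-05). TNFRSF8 read 10.38, 10.44 and 10.44 on the L-428 EBF1 arrays, against 10.46, 10.47 and 10.20 on the L-428 tGFP arrays. In L-428 the groups overlapped, with a change of 0.04 and a 95% interval of -0.11 to 0.19 (adjusted p = 0.927).

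TNFRSF14 showed a similar order in L-1236. TNFRSF14 read 9.83, 9.85 and 9.86 on the L-1236 EBF1 arrays, against 9.44, 9.42 and 9.44 on the L-1236 tGFP arrays, and it rose by 0.42 (1.33-fold, adjusted p = 5.7e-05). TNFRSF14 read 8.81, 8.80 and 8.74 on the L-428 EBF1 arrays, against 8.62, 8.66 and 8.52 on the L-428 tGFP arrays. The L-428 groups were also apart, but the change of 0.18 did not pass (adjusted p = 0.0847). CD27, TNFRSF4 (OX40) and TNFRSF18 (GITR), costimulatory receptors of T cells, passed in neither line, with changes of 0.08, -0.07 and 0.05 in L-428.

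Among 8 death domain receptors, 1 passed for EBF1, as higher in L-1236, where 3.69% of all tested rows were higher. NGFR differs from the others in that its main ligands are neurotrophins. NGFR read 8.64, 8.45 and 8.57 on the L-1236 EBF1 arrays, against 7.91, 7.95 and 7.82 on the L-1236 tGFP arrays. The groups were apart by more than their spread, at 8.55 ± 0.098 in EBF1 and 7.89 ± 0.068 in tGFP cells (SD, n = 3 each), a rise of 0.66 ± 0.061 (SE) or 1.58-fold (adjusted p = 7.36e-07). NGFR read 7.90, 7.95 and 7.93 on the L-428 EBF1 arrays, against 7.77, 7.76 and 7.78 on the L-428 tGFP arrays, a change of 0.16 that did not pass (adjusted p = 0.193). Single T-cell and myeloid markers moved the same way in L-1236: CD3D (0.32 ± 0.065, adjusted p = 0.00271) and CSF1R (0.36 ± 0.064, adjusted p = 0.00107) were also higher with EBF1, 1 of 6 rows in each list. The mean level of the T-cell list was 6.57 to 6.69 on the L-1236 EBF1 arrays and 6.51 to 6.59 on the L-1236 tGFP arrays, and that of the myeloid list 6.94 to 7.06 on the EBF1 and 6.83 to 6.92 on the tGFP arrays. Of 5 B-cell marker rows, CD79A (1.18) and CD79B (0.26) were higher and CD22 (-0.40) lower with EBF1 in L-1236, and CD79A (0.23) was higher in L-428. Of 8 Hodgkin marker rows, a list that holds TNFRSF8 and CD40, 4 were higher with EBF1 in L-1236 and 3 in L-428, and 0 were lower. Of all tested rows, 3.69% were higher and 5.95% lower in L-1236, and 2.62% and 1.72% in L-428. The part of these lists in the results was not tested.

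The receptors that carry the classical apoptosis signal did not pass in either line with all arrays, but several calls turned on single settings. FAS had log2 differences of -0.18 in L-428 (adjusted p = 0.422) and -0.24 in L-1236 (adjusted p = 0.134). In L-428 the FAS difference was -0.29 without tGFP replicate 3 (adjusted p = 0.0663), and it passed without both arrays that stood apart (adjusted p = 0.0157) and with both kinds of array weights. In L-1236 FAS passed without EBF1 replicate 2 (-0.31, adjusted p = 0.0498), after quantile normalization and with both kinds of weights. The TRAIL receptor TNFRSF10A differed by 0.21 in L-428 (adjusted p = 0.0943) and had near-equal means in L-1236 (adjusted p = 0.984); in L-428 it was 0.13 without tGFP replicate 3, and it passed after quantile normalization and with both kinds of weights. The other TRAIL receptor, TNFRSF10B, averaged 8.96 ± 0.085 in EBF1 and 9.19 ± 0.031 in tGFP cells (SD, n = 3 each) in L-1236. Its arrays did not overlap there, and the difference of -0.23 was close to the threshold (adjusted p = 0.0549). It passed under 9 of 23 settings, among them without L-428 tGFP replicate 1 or 3. TNFRSF1A (TNF receptor), TNFRSF21 (DR6), TNFRSF25 (DR3) and EDAR (the ectodysplasin receptor) lay between -0.05 and 0.10 in both lines. EDAR was below the array median on every array.

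Of 6 other TRAF-binding receptors, TNFRSF11A passed in L-1236, as lower, against 5.95% of all tested rows lower. TNFRSF11A read 9.73, 9.87 and 9.76 on the L-1236 EBF1 arrays, against 10.05, 10.00 and 10.01 on the L-1236 tGFP arrays. It fell by 0.23 on the log2 scale (adjusted p = 0.037), a call that was lost when any 1 of 8 arrays was left out: each L-428 EBF1 array, each L-1236 tGFP array, and L-1236 EBF1 replicates 1 and 3 (adjusted p = 0.0513 to 0.133). In L-428, TNFRSF11A read 9.46, 9.44 and 9.42 on the L-428 EBF1 arrays, against 9.51, 9.55 and 9.29 on the L-428 tGFP arrays, and the groups overlapped (-0.01, adjusted p = 0.984). TNFRSF1B (TNF receptor), TNFRSF12A (Fn14), TNFRSF19 (TROY), LTBR (lymphotoxin beta receptor) and RELT passed in neither line, at -0.04 to 0.05 in L-428. Of these, TNFRSF1B, TNFRSF19 and LTBR were below the array median on every array. The 4 decoy receptors, TNFRSF6B, TNFRSF10C, TNFRSF10D and TNFRSF11B (osteoprotegerin), lay between -0.07 and 0.05 in both lines. All of them but TNFRSF6B were below the array median on every array. The 3 BAFF and APRIL receptors of B and plasma cells, TNFRSF13B (TACI), TNFRSF13C (BAFF receptor) and TNFRSF17 (BCMA), also passed in neither line; the largest difference was 0.16 for TNFRSF13C in L-1236 (adjusted p = 0.128).

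Of 15 ligand rows, 1 rose and 1 fell in each line. Of all tested rows, 2.62% were higher and 1.72% lower in L-428, and 3.69% and 5.95% in L-1236. TNFSF4 read 7.15, 7.10 and 7.04 on the L-428 EBF1 arrays, against 6.78, 6.86 and 6.75 on the L-428 tGFP arrays, and the groups did not overlap (0.30, adjusted p = 0.0163). TNFSF4 was below the array median on all 12 arrays, and the call was lost when L-428 tGFP replicate 1 or L-428 EBF1 replicate 1 or 2 was left out (adjusted p = 0.0528 to 0.097). In L-1236, TNFSF4 read 7.08, 7.14 and 6.90 on the L-1236 EBF1 arrays, against 6.81, 6.99 and 6.94 on the L-1236 tGFP arrays, and the groups overlapped (0.13, adjusted p = 0.335). TNFSF10 read 11.23, 11.11 and 11.07 on the L-428 EBF1 arrays, against 11.60, 11.60 and 11.28 on the L-428 tGFP arrays, a change of -0.36 ± 0.088 (SE) (adjusted p = 0.0241) with all EBF1 arrays below all tGFP arrays. This call was lost when L-428 tGFP replicate 1 or 2 or L-428 EBF1 replicate 2 or 3 was left out (adjusted p = 0.0978 to 0.131). In L-1236, TNFSF10 read 8.29, 8.59 and 8.54 on the L-1236 EBF1 arrays, against 8.72, 8.68 and 8.66 on the L-1236 tGFP arrays, also without overlap, and the change of -0.22 did not pass (adjusted p = 0.151).

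TNF, the founding cytokine of the family, fell in L-1236. TNF read 11.09, 11.24 and 11.21 on the L-1236 EBF1 arrays, against 11.57, 11.55 and 11.56 on the L-1236 tGFP arrays, a change of -0.38 ± 0.096 (SE) (adjusted p = 0.0157), with no overlap. The call was lost when any L-1236 tGFP array or L-1236 EBF1 replicate 1 was left out (adjusted p = 0.0503 to 0.0659). TNF read 10.13, 10.19 and 9.99 on the L-428 EBF1 arrays, against 10.38, 10.47 and 9.97 on the L-428 tGFP arrays. The overlap in L-428 came from tGFP replicate 3, and the change was -0.17 (adjusted p = 0.488). LTA (lymphotoxin alpha) read 9.75, 9.76 and 9.87 on the L-428 EBF1 arrays, against 10.04, 10.04 and 9.75 on the L-428 tGFP arrays (-0.15, adjusted p = 0.372). It read 12.13, 12.24 and 12.17 on the L-1236 EBF1 arrays, against 12.34, 12.33 and 12.37 on the L-1236 tGFP arrays (-0.17, adjusted p = 0.193). The LTA groups overlapped in L-428 and did not in L-1236. The dimmer LTA row gave a like difference in L-1236 that passed (-0.21, adjusted p = 0.0372), so the rows disagree on the call.

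The array that stood apart bore on the calls of ligands in L-428, as it did on all rows. Without L-428 tGFP replicate 3, 7 members passed in L-428 in place of 4, and the gains were TNF (-0.32), LTA (-0.24) and CD70 (-0.24). Over all rows, the lower calls in L-428 went from 354 to 843 in that setting, so such gains were not particular to the ligands. Without both arrays that stood apart, 8 members passed in L-428 and 10 in L-1236. Over all rows that setting gave 703 higher and 1281 lower in L-428, and 1222 and 1418 in L-1236. CD70, the ligand of CD27, differed by -0.13 in L-428 with all arrays (adjusted p = 0.541) and by -0.15 in L-1236 (adjusted p = 0.3). The remaining ligands, TNFSF8 (CD30 ligand), TNFSF11 (RANK ligand), TNFSF12 with TNFSF13 (TWEAK and APRIL), TNFSF13B (BAFF), TNFSF14 (LIGHT), TNFSF15, TNFSF18 (GITR ligand), LTB (lymphotoxin beta) and FASLG, passed in neither line. Of these, TNFSF8, TNFSF11, TNFSF13B, TNFSF15, TNFSF18 and FASLG were below the array median on every array. Over all members that did not pass, log2 changes ran between -0.18 and 0.21 in L-428 (39 rows) and between -0.24 and 0.16 in L-1236 (35 rows), with 95% intervals reaching -0.37 and 0.35, and -0.43 and 0.31.

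**Figure D2:**
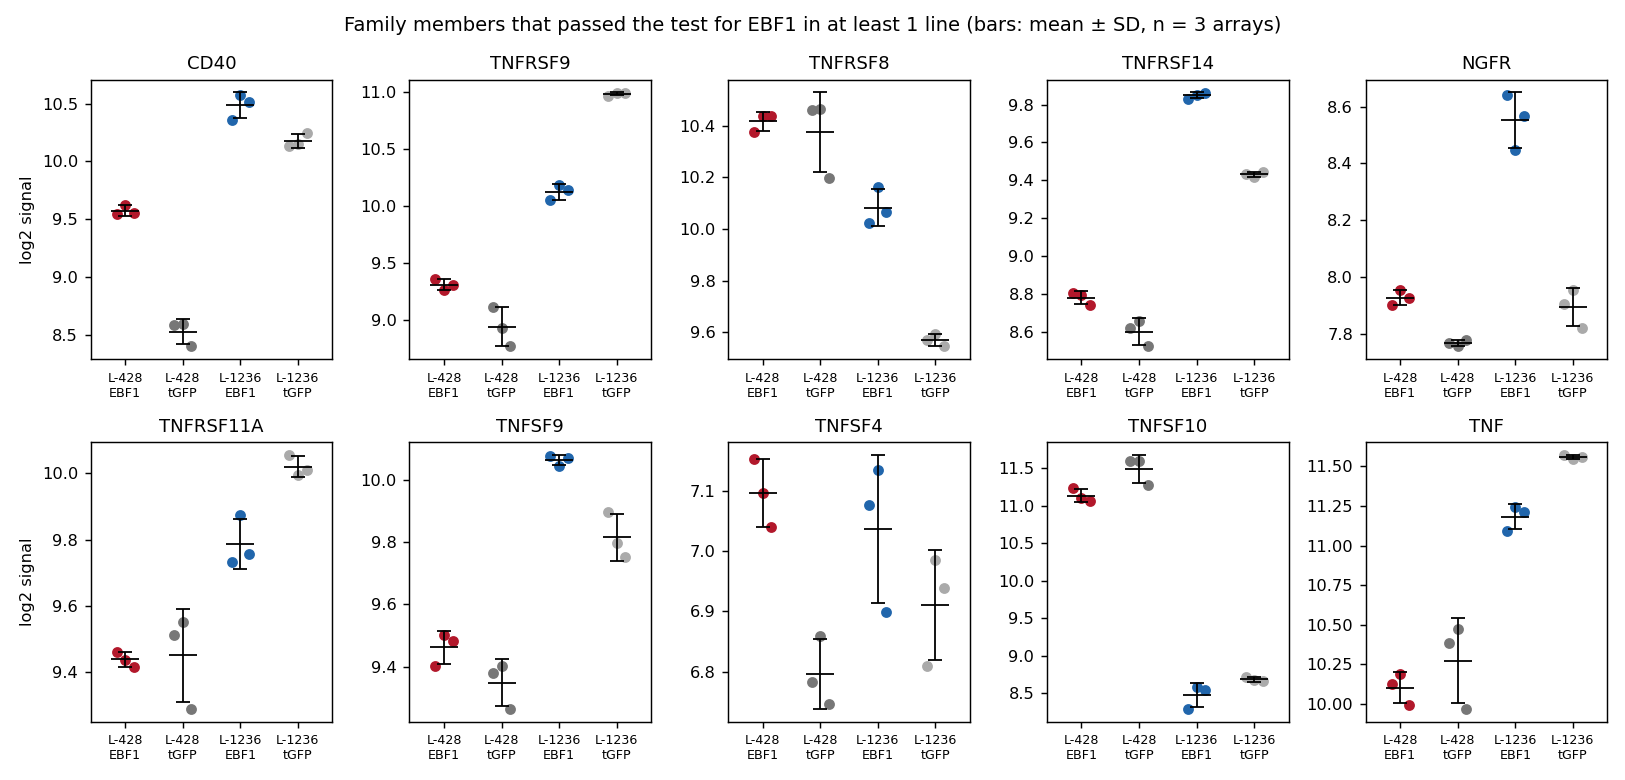
Log2 signal (vertical) of the 10 members that passed the test for EBF1 in at least 1 line, on each array of the 4 groups (horizontal), with mean and SD over 3 arrays. CD40 separates most in L-428, at 9.57 in EBF1 against 8.53 in tGFP cells, and TNFRSF9 most in L-1236, at 10.13 against 10.99; the vertical axes differ between panels.

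Whether EBF1 acted alike in both lines was tested as the difference of its effects, L-428 minus L-1236. Of 43 rows, 2 passed as higher and 2 as lower, against 3.38% of all tested rows higher and 1.79% lower; over all rows the split was 694 higher and 367 lower, and 1044 and 845 after quantile normalization. The split turned to 701 higher and 756 lower without L-428 tGFP replicate 3, and to 784 and 1113 without both arrays that stood apart. TNFRSF9 differed most among the members, by 1.23 ± 0.10 (SE) (adjusted p = 1.13e-06), with a rise in L-428 and a fall in L-1236. CD40 rose in both lines and 0.74 more in L-428 (adjusted p = 0.000142). NGFR (-0.50, adjusted p = 0.00177) and TNFRSF8 (-0.47, adjusted p = 0.00768) rose more in L-1236. All 4 calls held under every alternative other than the added 2-fold limit, which TNFRSF9 alone of them reached. The difference did not pass for TNFRSF14 (-0.24, adjusted p = 0.103; without L-428 tGFP replicate 3 it passed at -0.27, adjusted p = 0.0228), TNF (0.21, interval -0.08 to 0.49), TNFSF10 (-0.14, interval -0.40 to 0.12; -0.25 without L-428 tGFP replicate 3, and passing at -0.34, adjusted p = 0.014, without both arrays that stood apart and with both kinds of weights), TNFSF4 (0.18, interval -0.03 to 0.38), TNFSF9 (-0.13, interval -0.32 to 0.05) or TNFRSF11A (0.22, interval 0.02 to 0.42). Of the 10 members that passed in either line, 2 passed in both, CD40 in the same and TNFRSF9 in the opposite direction, and 33 rows passed in neither. The like counts over all rows were not made, so this sharing is not read as particular to the family.

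**Figure D3:**
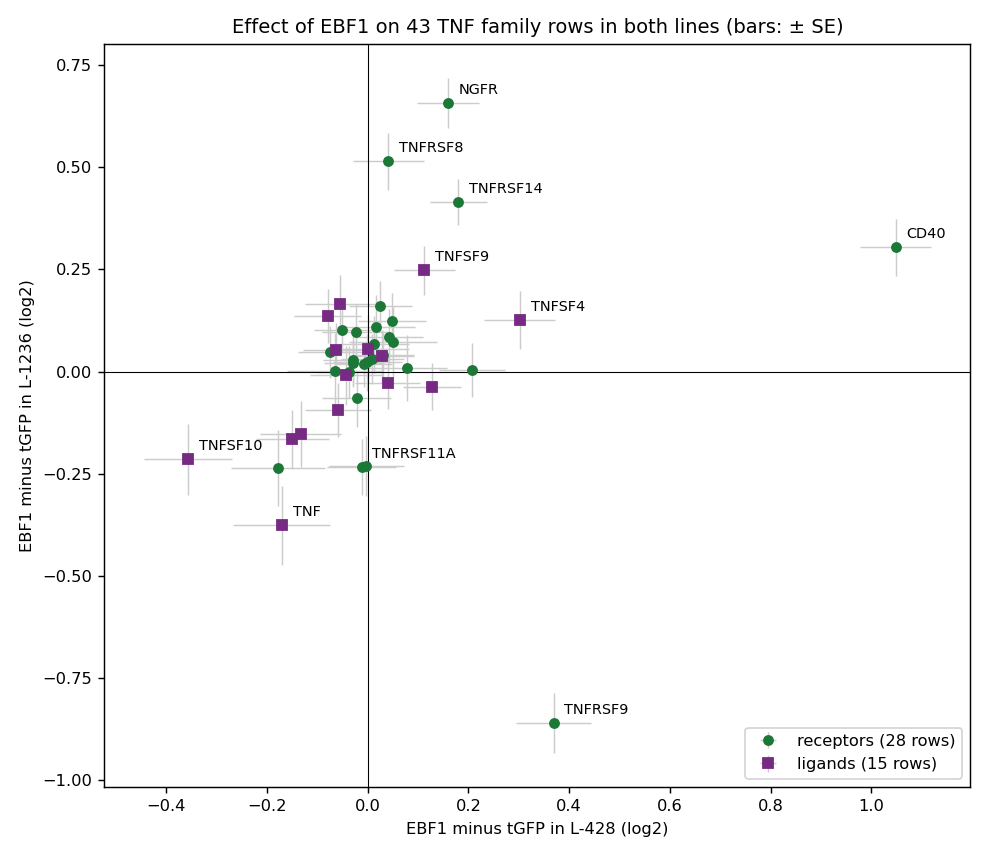
Log2 change with EBF1 in L-428 (horizontal) and in L-1236 (vertical) for 43 family rows, with SE bars; circles are receptors and squares ligands, and members that passed in a line are named. CD40 lies far right at 1.05 in L-428, TNFRSF9 lies alone at lower right at 0.37 and -0.86, and most rows gather near 0.

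More members differed between the lines than with EBF1. Between the tGFP groups (L-428 against L-1236) 10 rows were higher and 10 lower of 43, against 26.1% of all tested rows higher and 21.7% lower. Between the EBF1 groups 10 were higher and 13 lower, against 28.2% and 22.3% of all rows. The members' shares were thus near those of all rows. Of the members, 19 passed in both comparisons, each in the same direction. The share of all rows that did so was not counted, so this is not read as a trait of the family. The split over all rows depended on the processing. Between the tGFP groups it was 5371 higher and 4465 lower, and 5251 and 5364 after quantile normalization. Between the EBF1 groups it was 5795 and 4586, and 5314 and 5526 after quantile normalization. With a 2-fold limit, 4 rows were higher and 5 lower between the tGFP groups, against 4.16% and 3.04% of all rows. With that limit 3 were higher and 3 lower between the EBF1 groups, against 4.85% and 2.8%.

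The ligands gave both extremes. TNFSF10 averaged 11.49 ± 0.18 in L-428 and 8.69 ± 0.032 in L-1236 tGFP cells (SD, n = 3 each), a 7-fold higher level in L-428 (adjusted p = 3.08e-15). With EBF1 it averaged 11.14 ± 0.085 in L-428 and 8.47 ± 0.16 in L-1236 cells, still 6.35-fold higher (adjusted p = 6.89e-15). LTA ran the other way, at 9.94 ± 0.17 in L-428 and 12.34 ± 0.019 in L-1236 tGFP cells, 5.29-fold lower in L-428 (adjusted p = 2.08e-15), and 5.23-fold lower between the EBF1 groups (adjusted p = 2.41e-15). No array of 1 line overlapped the other for either gene. The dimmer LTA row gave differences of -1.99 and -1.94, in the same direction.

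CD70 was higher in L-428, at 9.67 ± 0.19 in L-428 and 8.27 ± 0.068 in L-1236 tGFP cells (1.40, adjusted p = 2.48e-11) and 1.42 between the EBF1 groups, while its receptor CD27 was lower, at 7.45 ± 0.14 in L-428 and 8.45 ± 0.084 in L-1236 tGFP cells (2.01-fold lower, adjusted p = 3.01e-09). Ligand and receptor therefore ran in opposite directions between the lines. TNF was 2.44-fold lower in L-428 tGFP than in L-1236 tGFP cells (-1.28) and 2.11-fold lower with EBF1 (-1.08), and its receptor TNFRSF1A was also lower (-0.69 and -0.75), while TNFRSF1B did not differ past the threshold (0.01 and -0.03). TNFSF9 and TNFRSF9 were both lower in L-428, TNFSF9 at -0.47 and -0.60 and TNFRSF9 at -2.05 and -0.82 (tGFP and EBF1 groups). TNFSF14 was higher in L-428 (0.36 and 0.39) and its receptor TNFRSF14 lower (-0.83 and -1.07). For TNFSF8, the ligand of TNFRSF8, neither comparison passed (-0.05 and -0.06). The rows of TNFSF8 and TNFRSF1B were below the array median on every array.

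Among the death domain receptors, 4 of 8 were higher in L-428 in both comparisons, 1 was lower between the tGFP groups and 3 between the EBF1 groups, against 26.1% of all rows higher and 21.7% lower, and 28.2% and 22.3%. Those higher were TNFRSF10A (1.31 and 1.51), TNFRSF21 (1.10 and 0.98), FAS (0.58 and 0.63) and TNFRSF10B (0.48 and 0.71). The ligand TNFSF10 and both of its death domain receptors thus stood higher in L-428, while the TRAIL decoys TNFRSF10C and TNFRSF10D passed in neither comparison. Both decoys were below the array median on every array. TNFRSF10A averaged 9.13 ± 0.13 in L-428 and 7.82 ± 0.010 in L-1236 tGFP cells, and no arrays overlapped. TNFRSF1A was lower in both, and NGFR and TNFRSF25 were lower between the EBF1 groups (-0.62 and -0.23) but not past the threshold between the tGFP groups (-0.13 and -0.08).

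Of the costimulatory receptors, 4 of 7 were lower and 1 higher in L-428 in both comparisons, against 21.7% of all rows lower and 26.1% higher between the tGFP groups, and 22.3% and 28.2% between the EBF1 groups. CD40 was 3.15-fold lower in L-428 tGFP than in L-1236 tGFP cells (adjusted p = 2.85e-13) and 1.88-fold lower between the EBF1 groups. TNFRSF9 was 4.13-fold and 1.76-fold lower. The distance between the lines was smaller with EBF1 for both, as their differences of effect above give. TNFRSF8 was higher in L-428, 1.75-fold between the tGFP groups and 1.26-fold between the EBF1 groups. Of the other TRAF-binding receptors, TNFRSF12A (0.24 and 0.23) and RELT (0.18 and 0.16) were higher and TNFRSF11A (-0.57 and -0.35) lower. After quantile normalization the TNFRSF12A difference between the EBF1 groups was 0.09 and did not pass (adjusted p = 0.29). The RELT call between the EBF1 groups was also lost in that setting and with the replicate block. No decoy and no BAFF or APRIL receptor passed. TNFRSF10C, TNFRSF10D, TNFRSF11B and TNFRSF17 among them were below the array median on every array, as were the ligands TNFSF15 and TNFSF18. Some smaller calls were lost when 1 array was left out: that of TNFSF15 (-0.21, EBF1 groups) without L-1236 EBF1 replicate 1, that of TNFSF18 (-0.16, tGFP groups) for 7 of the 12 arrays, and that of RELT for 2 arrays (L-428 tGFP replicate 1 and L-1236 tGFP replicate 1) between the tGFP groups and 5 between the EBF1 groups. LTB was lower between the EBF1 groups (-0.30); between the tGFP groups its brighter row did not pass (-0.08) and its dimmer row did (-0.41, adjusted p = 0.000674).

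**Figure D4:**
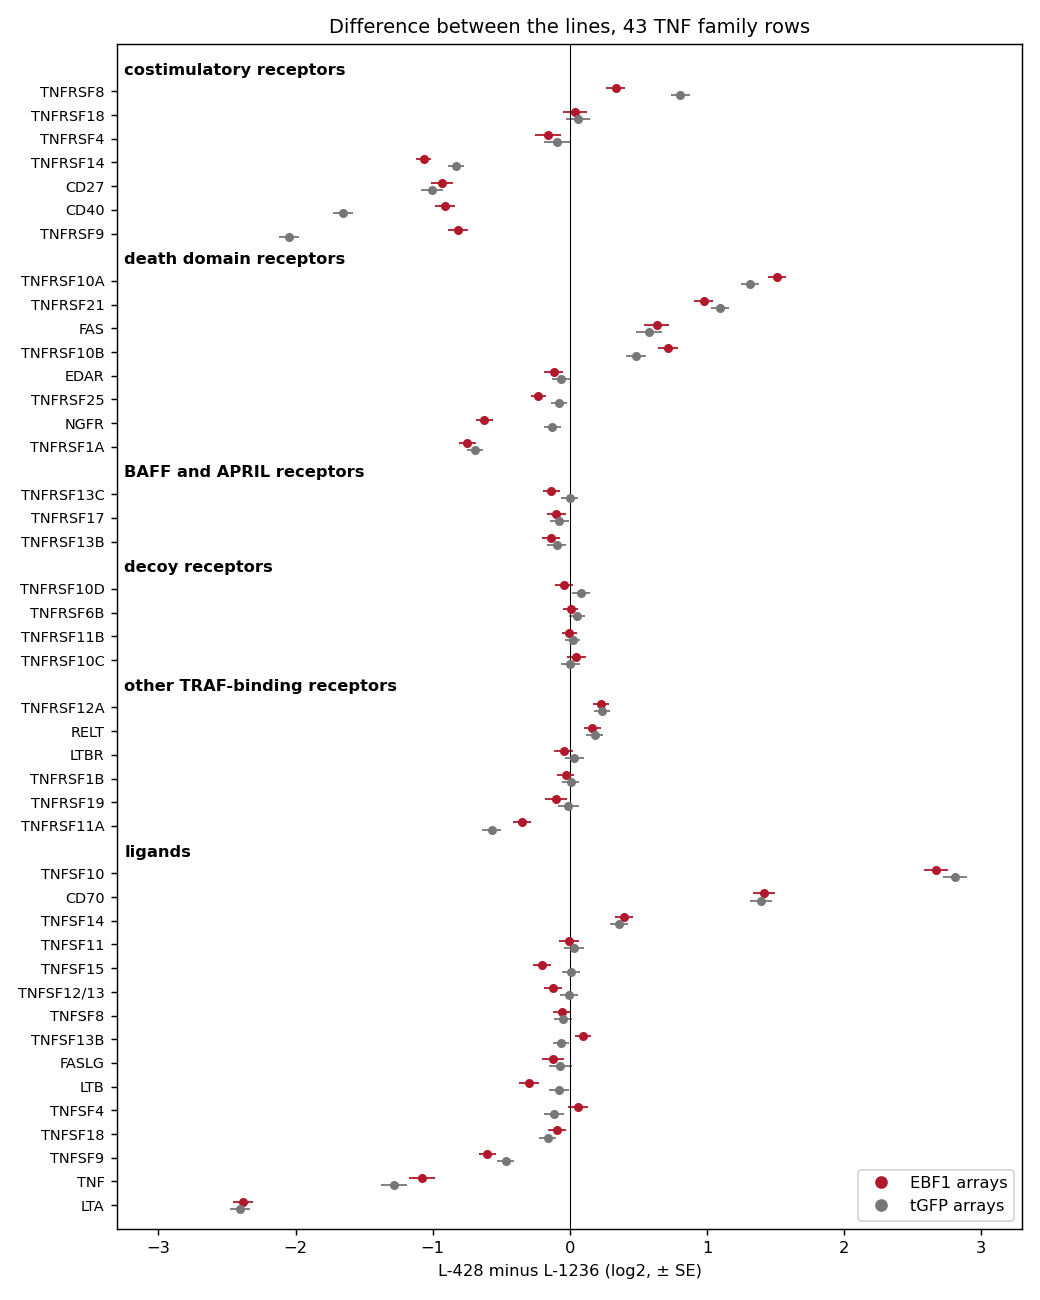
Log2 difference between the lines, L-428 minus L-1236 (horizontal, SE bars), for 43 family rows ordered by role (vertical), between the EBF1 groups in red and the tGFP groups in grey. TNFSF10 lies farthest right at 2.67 and 2.81, LTA farthest left at -2.39 and -2.40, and CD40 and TNFRSF9 show the widest gaps between their red and grey points.

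Several members lie beside each other in the RefSeq gene table with no protein-coding gene between them, and neighbours did not always move alike. On chromosome 19 TNFSF9, CD70 and TNFSF14 are adjacent: between the tGFP groups TNFSF9 was lower in L-428 (-0.47) while CD70 (1.40) and TNFSF14 (0.36) were higher. On chromosome 6 LTA, TNF and LTB are adjacent, and LTA and TNF were both lower in L-428. On chromosome 1 TNFRSF8 and TNFRSF1B are adjacent. In L-1236 TNFRSF8 rose with EBF1, and TNFRSF1B, below the array median on every array, did not pass (adjusted p = 0.997). The 4 TRAIL receptors on chromosome 8 are adjacent, and the 2 with death domains were higher in L-428. Both decoys, below the array median on every array, did not pass.

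Receptor-proximal signalling genes, which carry the signal from these receptors to NF-kappaB and caspases, were read as a list of 41, of which 38 had a row; TRAF2, RIPK1 and BIRC3 are unnamed here. In L-428, 3 of 38 were higher with EBF1 and 0 lower: TNIP1 (0.49 ± 0.066, adjusted p = 0.000143), an A20-binding inhibitor of NF-kappaB, OTULIN (0.28 ± 0.074, adjusted p = 0.0353), a deubiquitinase of linear chains, and RBCK1 (0.27 ± 0.069, adjusted p = 0.0302), a subunit of the linear ubiquitin ligase (log2 change ± SE). In L-1236, 2 were higher, the NF-kappaB subunit REL (0.31 ± 0.076, adjusted p = 0.0126) and the adaptor TRAF5 (0.26 ± 0.074, adjusted p = 0.0302). There 5 were lower: the adaptors TRAF6 (-0.38 ± 0.077, adjusted p = 0.00313) and TRAF3 (-0.29 ± 0.063, adjusted p = 0.00557), TNFAIP3 (A20, -0.34 ± 0.088, adjusted p = 0.0164), the ubiquitin ligase BIRC2 (-0.32 ± 0.080, adjusted p = 0.0141) and CFLAR (-0.30 ± 0.071, adjusted p = 0.00942), an inhibitor of CASP8 activation. Of all rows, 2.62% were higher and 1.72% lower in L-428, and 3.69% higher and 5.95% lower in L-1236. The difference of effects passed for TNIP1 (0.45 ± 0.094, adjusted p = 0.00768) and TRAF6 (0.48 ± 0.11, adjusted p = 0.0136) among the 38. These were 2 rows higher and 0 lower, against 3.38% of all tested rows higher and 1.79% lower in that contrast. The list's median log2 change was 0.016 in L-428 and -0.036 in L-1236, against 0.0037 and 0.0080 over all rows. Between the tGFP groups 18 of 38 were higher and 9 lower in L-428, against 26.1% and 21.7% of all rows. Between the EBF1 groups 21 were higher and 9 lower, against 28.2% and 22.3% of all rows. Of the 38, 34 were above the array median on every array, while all rows include dim ones. Limited to brighter rows, the fit called 4752 higher and 3373 lower (tGFP groups), against 5371 and 4465 over all rows. Between the EBF1 groups it called 5175 and 3150, against 5795 and 4586. Shares among brighter rows were not counted, so the list's shares are not read as particular to it. EDA and EDA2R, family genes outside the 45, passed in neither line with EBF1.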

How the data were processed

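Total RNA of sorted tGFP-positive cells was measured on 12 Affymetrix whole-transcript arrays. The deposited table holds 1 log2 value per row and array, and the labels' protocols name amplification with a whole-transcript kit. No source used here gives the log base, summarization or normalization. Values reach 14.3, which on another base would lie outside the range of a 16-bit scanner. Precision is limited by the number of arrays.

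These log2 values, as the authors deposited them, entered limma 3.58.1 (R 4.3.3; lmFit and eBayes, 4 group means over all arrays, no block, 8 residual and 9.98 prior degrees of freedom). P-values were adjusted by Benjamini-Hochberg within each contrast over 20546 rows with a gene symbol (19158 with 1, 1388 with several), and 11775 rows without one were left out. A row passed at an adjusted p of 0.05 or less. That rate and the 2-fold limit given beside it are those of the design text. The 5 contrasts compared EBF1 with tGFP per line, both of these effects with each other, and L-428 with L-1236 within tGFP and within EBF1 cells. The fit was tested on simulated data.

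The members and lists were chosen with earlier results of these data known. Every member with a row was named. Values on every array were given for members that passed an EBF1 contrast or the difference of effects, or that differed 4-fold or more between the lines in both comparisons. Up to 4 passing genes of the signalling list were named per direction and line, by size of change; TRAF3, CD3D, CSF1R, CD79A, CD79B and CD22 were named beyond that after their values were seen. A gene with several rows was read from the brightest row with 1 symbol. 1 item of the marker lists is not reported here. All 44 member symbols with a row matched RefSeq gene IDs.

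Replicate numbers were not taken as pairs, because deviations of same-numbered EBF1 and tGFP arrays correlated at -0.21 to 0.28. As alternatives, the values were quantile normalized or centred on array medians, the rows were limited to brighter ones, to 1 for each symbol or widened to the whole table, and the fit used trended robust variances, array weights, the replicate block or the 6 arrays of a comparison. Each array, and both that stand apart, were also left out, and the 2-fold limit was added. Promoter windows are from RefSeq, without those on chromosome 8. Python 3.11.15 with matplotlib 3.10.9 drew the figures.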

Additional observations from a re-analysis of the deposited data

Results flagged for a closer look

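The effect of EBF1 differed between the lines for 4 members by limma's test of the difference itself, L-428 effect minus L-1236 effect on the log2 scale. TNFRSF9 differed by 1.23 (adjusted p = 1.13e-06), with a change of 0.37 in L-428 and -0.86 in L-1236; its EBF1 and tGFP arrays did not overlap in either line. CD40 differed by 0.74 (adjusted p = 0.000142), with 1.05 in L-428 and 0.30 in L-1236. NGFR differed by -0.50 (adjusted p = 0.00177), with 0.16 in L-428 and 0.66 in L-1236. TNFRSF8 differed by -0.47 (adjusted p = 0.00768), with 0.04 in L-428 and 0.51 in L-1236. Without both arrays that stand apart the differences were 1.11 for TNFRSF9, 0.62 for CD40, -0.45 for NGFR and -0.59 for TNFRSF8, and all 4 passed.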

How the results depend on the processing

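No result changed direction among those that passed. The number of members passing for EBF1 in L-428, 4 of 43, was 2 with every row tested, 11 with array weights, 12 with the gene-by-gene weights added after seeing the data, 8 without both arrays that stand apart and 1 with the 2-fold limit; leaving out 1 array gave 2 to 7, the highest without L-428 tGFP replicate 3 and the lowest without L-428 tGFP replicate 1 or L-428 EBF1 replicate 2. In L-1236 the number, 8, was 13 after quantile normalization, 19 with array weights, 15 with gene-by-gene weights and 0 with the 2-fold limit; leaving out 1 array gave 5 to 10, the lowest without L-1236 tGFP replicate 2 or 3. For the difference of effects, 4 passed, with 10 under array weights, 7 under gene-by-gene weights, 1 at the 2-fold limit and 4 to 5 with 1 array left out. Between the lines, 20 members passed in tGFP and 23 in EBF1 cells, with 9 and 6 at the 2-fold limit, and 18 to 20 and 22 to 25 with 1 array left out. The default array weights stopped before they converged and gave L-1236 EBF1 replicate 3 a weight of 36.7 (3.86 by the gene-by-gene method). With the replicate number as a block the counts were 4, 8, 4, 19 and 22 in the same order. Over all 20546 rows, array weights called 1093 higher and 1564 lower in L-428, and 4176 and 4574 in L-1236. Gene-by-gene weights called 1090 and 1502 in L-428, and 2232 and 2944 in L-1236. Quantile normalization called 1415 and 1713 in L-1236. The main fit called 538 and 354 in L-428, and 759 and 1222 in L-1236. For the difference, array weights called 2415 and 2123, against 694 and 367. The members' gains thus went with gains over all rows. Calls that held under every alternative numbered 2 of 4 in L-428 (CD40 and TNFRSF9), 5 of 8 in L-1236 (TNFRSF9, TNFRSF8, TNFRSF14, NGFR and CD40), 4 of 4 for the difference, and 18 of 20 and 20 of 23 between the lines, the 2-fold limit apart. With 1 of 3 arrays left out of a group, the spread rests on the other groups more. The causes of these shifts were not tested.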
